A study of Mus musculus with 2 samples.

Results

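Indirect-pathway-like striatal projection neurons (iSPN-like cells) were examined in single-cell RNA sequencing of mouse cerebral cortex at embryonic day 16.5. There were 2 libraries, both WT controls from a colony that the labels call EomesDot and that the series title describes as an Eomes-Cre line. They carried no treatment, and no mutant group was analysed here. The labels do not say whether a library holds 1 embryo or several. The fit used below takes out the shift between libraries. Its p-values therefore measure how differences between classes vary across these 2 libraries, over all the classes fitted. That spread may be technical. The members were chosen by a gate on counts of unique molecular identifiers (UMIs, 1 for each captured RNA molecule): at least 1 UMI of Gad1 or Gad2, at least 1 of Foxp1, at least 1 of Six3, Drd2, Penk or Adora2a, and none of Ebf1, Isl1, Drd1, Lhx6, Adarb2, Neurod6, Mki67 or Top2a. It took 102 of the 5966 kept cells of replicate 1 and 149 of the 10247 of replicate 2, together 251 of 16213 cells. This was 1.71% (exact 95% confidence interval 1.40 to 2.07) and 1.45% of the kept cells, with a mean of 1.58% ± 0.181 (SD, n = 2). The libraries held 46398156 and 64324236 UMIs. The members had a median of 3716.5 UMIs in replicate 1 and 4236 in replicate 2.

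Striatal projection neurons are the GABAergic output neurons of the striatum and are born in the lateral ganglionic eminence (LGE) of the embryonic ventral forebrain. Neurons of the indirect pathway project to the external globus pallidus and carry the D2 dopamine receptor (Drd2), an adenosine receptor (Adora2a) and proenkephalin (Penk). Neurons of the direct pathway project to the substantia nigra and internal pallidum and carry the D1 receptor (Drd1). Six3 and Sp9 are transcription factors known for their role in making indirect-pathway neurons, whereas Ebf1 and Isl1 act in the direct-pathway lineage. The labels name the tissue as cerebral cortex, which in the adult is not where these neurons reside. How cells of this kind came into the libraries was not tested.

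The genes of the gate are a description, since they chose the cells. Six3 was found in 72 of 102 members of replicate 1 and 96 of 149 of replicate 2. Drd2 was found in 58 and 84 members. Adora2a followed with 23 and 46 members, and Penk with 10 and 19. Most members thus carried Six3 or Drd2, while Penk, the neuropeptide precursor of the adult indirect pathway, was found in 11.3% ± 2.08 (SD, n = 2) of them. As counts per 1000000 UMIs (CPM) of the members in a library, Six3 stood at 457 and 396, Drd2 at 242 and 223, Adora2a at 55.0 and 87.3, and Penk at 24.2 and 55.3. Foxp1, a transcription factor of striatal projection neurons of both pathways, had a median of 9 and 10 UMIs per member. In mm10 coordinates these genes lie on chr17:85613608-85626191 (Six3), chr9:49340360-49408177 (Drd2), chr10:75316877-75334792 (Adora2a), chr4:4133536-4138815 (Penk) and chr6:98925342-99522746 (Foxp1).

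Detection of more than 1 of the 4 indirect-pathway genes in the same cell was common but not the rule. In all, 133 members showed 1 of the genes, 82 showed 2, 33 showed 3 and 3 showed all 4. The most frequent patterns were Six3 alone with 72 cells, Six3 with Drd2 in 51, Drd2 alone in 37 and Adora2a alone in 20. Penk as the only gene was seen in 4 cells. The plot of detection shares shows the same order of genes in both libraries.

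**Figure D1:**
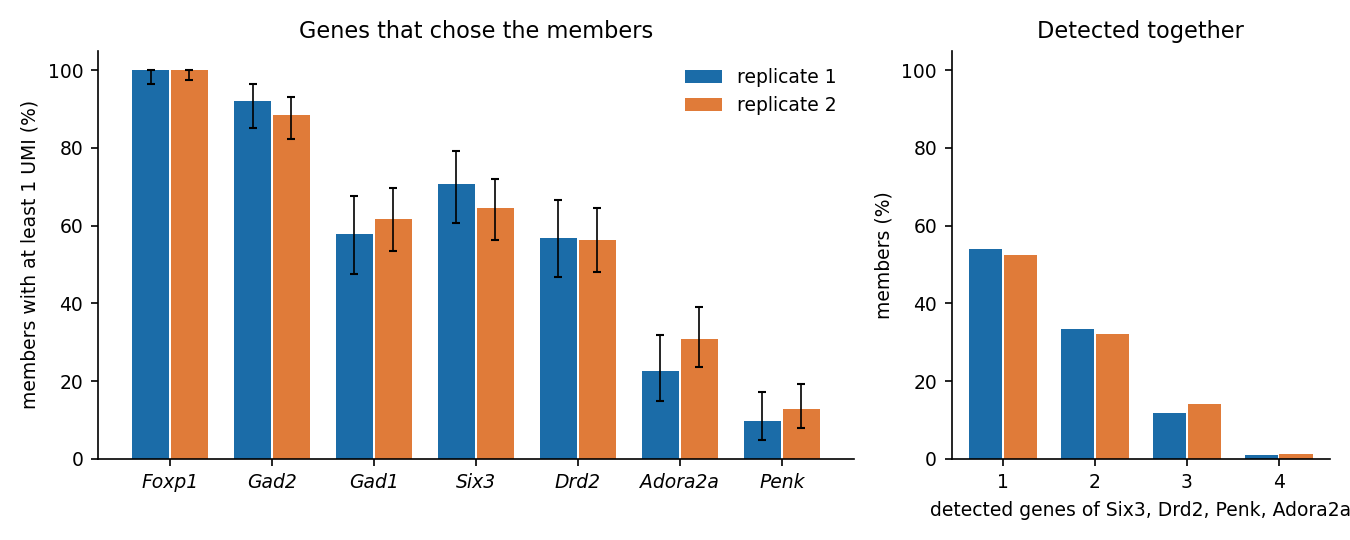
Left, share of iSPN-like members (percent) with at least 1 UMI of each gene that the gate required, for replicate 1 (blue, 102 cells) and replicate 2 (orange, 149 cells), with exact 95% binomial intervals. Right, share of members (percent) with 1 to 4 detected genes of Six3, Drd2, Penk and Adora2a. Six3 and Drd2 were the most often detected of the 4, Penk the least, and 133 of 251 members showed a single gene.

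Cells just inside and just outside the gate differed in genes that the gate did not use, and these values are given without a test. The 74 members with exactly 1 UMI over the 4 genes held Foxp2 at 324 and 422 CPM in replicates 1 and 2, against 93.1 and 65.3 CPM in the 177 members with 2 or more UMIs. Erbb4, the neuregulin receptor of cortical interneurons, stood at 663 and 343 CPM in the first set and at 80.7 and 65.3 CPM in the second. The 347 cells that met all other conditions but had 0 UMIs of the 4 genes held Erbb4 at 5284 and 3455 CPM, and Bcl11b, a transcription factor of striatal projection neurons, at 469 and 503 CPM. In members Bcl11b stood at 1227 and 1406 CPM with 1 UMI of the 4 genes and at 2037 and 1469 CPM with more. For Erbb4 and Bcl11b the members with a single UMI thus lay between the other members and the cells with none, and they held the most Foxp2 of the 3 sets (253 and 244 CPM in the cells with none). On the other side of the gate, 18 cells were left out for exactly 1 UMI of Ebf1, Isl1 or Drd1 and 32 for 2 or more. The 18 cells held Sp9 at 436 and 118 CPM and Foxp2 at 581 and 328 CPM.

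The label was checked with genes outside the gate. Sp9 was found in 65 of 102 and 87 of 149 members (63.7% and 58.4%). After thinning every cell to 1500 UMIs the shares were 40.2% and 30.2%. In excitatory cells, gated on Neurod6 and lacking Gad1 and Gad2, Sp9 was found in 1.75% and 1.72% at a median of 7087 and 5757.5 UMIs, so the shares in the members lay above that background at a lower depth. Sp9 was also common in other GABAergic classes, with 49.6% and 44.9% of MGE-type cells and 47.4% and 41.4% of Meis2 LGE-type cells, but was found in only 10.4% and 11.1% of direct-pathway-like cells. Bcl11b was found in 89.2% and 94.6% of members, and in 84.9% and 90.7% of direct-pathway-like and 73.4% and 72.8% of MGE-type cells. Meis2, a homeobox factor of the LGE, was found in 94.1% and 98.0% of members and in 85.6% and 83.1% of excitatory cells. None of these 3 genes was thus found in the members alone. Some genes of mature projection neurons were at or near 0. Gpr6, Gpr52 and the direct-pathway gene Chrm4 had no UMI in any member, a count that allows up to 3 UMIs over them. Ppp1r1b, which encodes DARPP-32, had 1 UMI. Other projection neuron genes were not near 0, such as Pde10a at 248 and 258 CPM and Arpp21 at 229 and 247 CPM. Markers of cholinergic neurons amounted to 1 UMI for 1 of 3 genes, and the excitatory list to a summed 57.2 and 64.0 CPM against 2406 and 2366 CPM in excitatory cells.

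Some members carried RNA of other kinds of cells. By doublet score, 3 and 9 members ranked among the barcodes that would be removed, 12 of 251 in all. These were 2.94% and 6.04% of the members. Among all kept cells 432 of 5966 and 1111 of 10247 ranked so, a larger share in each library. No barcode of a member occurred in both libraries, while 21 of the kept cells shared a barcode with the other library. UMIs of endothelial, mural, fibroblast or microglial markers (2 or more) or at least 10 UMIs of Ttr, the transthyretin of the choroid plexus, were present in 3 and 10 members. In direct-pathway-like cells this was true of 11 and 15 cells. The sum over 4 fibroblast markers was 4.40 and 20.4 CPM in members but 280 and 27.5 CPM in direct-pathway-like cells, and that over 3 mural markers 6.60 and 2.91 CPM against 327 and 33.3 CPM. The 6 microglial markers summed to 22.0 and 26.2 CPM in members, 72.8 and 55.0 CPM in direct-pathway-like cells and 166 and 34.3 CPM in MGE-type cells. In the tests below, P2ry12 was lower in the members than in direct-pathway-like cells, and C1qa, C1qb and C1qc than in MGE-type cells. The 5 globin genes of the erythroid list summed to 1110 and 2317 CPM in members, 1026 and 1589 CPM in direct-pathway-like cells, 2551 and 5945 CPM in MGE-type cells and 5182 and 7999 CPM in Meis2 LGE-type cells. Mitochondrial genes made up a median of 7.35% and 4.89% of the members' UMIs and 5.64% and 4.70% of those of direct-pathway-like cells. In replicate 1 the members had the highest median of the 6 classes. The part of these differences in the results below was not tested except where a value without such cells is given.

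The closest comparison was with direct-pathway-like (dSPN-like) cells, which passed the same Gad1 or Gad2 and Foxp1 conditions but had a UMI of Ebf1, Isl1 or Drd1 and none of the 4 indirect-pathway genes. They numbered 106 and 162 cells, with a median of 3941.5 and 3767.5 UMIs. For the test, the UMIs of each class were added up within a library, giving 12 sums from 6 classes, which entered a single fit with the library as a block (quasi-likelihood test of edgeR, with Benjamini-Hochberg adjusted p-values). Genes of the gates were left out of the tests. Of 15002 genes, 203 (1.35%) were higher and 299 (1.99%) lower in the members at an adjusted p under 0.05, and 1640 had an unadjusted p under 0.05. The direction was the same in both libraries for 496 of the 502. Among the genes called higher, 12 had over 50% of the UMIs of a library in 1 cell, and among those called lower this held for 38, counted in the class with the higher level. The plot of gene-by-gene ratios shows both libraries.

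The receptor-type tyrosine phosphatase Ptprm, a homophilic adhesion molecule, had the lowest adjusted p of the genes named here. It stood at 2242 and 1982 CPM in the members against 88.6 and 20.3 CPM in dSPN-like cells. It was found in 82 of 102 and 133 of 149 members and in 12 and 8 dSPN-like cells. The log2 fold change was 5.44 ± 0.20 (SE, adjusted p = 3.32e-35), and the other 4 classes lay between 4.59 and 318 CPM in each library. Slit3, a secreted ligand of Robo receptors, stood at 1194 and 907 CPM in members and at 21.7 and 75.2 CPM in dSPN-like cells (4.35 ± 0.19, adjusted p = 5.62e-30). In no other class did Slit3 exceed 111 CPM. Thsd7b, a thrombospondin-domain gene, stood at 383 and 240 CPM against 9.84 and 17.4 CPM (4.44 ± 0.27, adjusted p = 8.79e-23), but its UMIs came from 35 and 39 members only. In both libraries the levels of Ptprm, Slit3 and Thsd7b in the members were above those in every other class.

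Several other genes were named after their values were seen. Dach2, an X-linked relative of the Dachshund transcription factors, stood at 350 and 163 CPM in members against 5.91 and 1.45 CPM (6.19 ± 0.40, adjusted p = 2.64e-21) and came from 28 and 29 members. Scube1, a secreted and membrane-bound glycoprotein, stood at 202 and 236 CPM against 9.84 and 21.7 CPM (3.77 ± 0.26, adjusted p = 1.64e-19). Plekhh2 stood at 61.6 and 39.3 CPM against 3.94 and 4.34 CPM (3.59 ± 0.71, adjusted p = 0.000226) and came from 13 and 16 members. Sox2, a SoxB factor best known from neural progenitors, stood at 308 and 282 CPM against 37.4 and 44.9 CPM (2.85 ± 0.20, adjusted p = 3.1e-19) and was found in 53 and 74 members. It was the only one of 8 radial glial markers called in this comparison, beside 1.35% higher and 1.99% lower of all genes. None of the others was called in either direction. Chrm2, the M2 muscarinic receptor, stood at 171 and 100 CPM against 21.7 and 20.3 CPM (2.68 ± 0.31, adjusted p = 3.55e-10) and came from 21 and 25 members. Zfhx3 and Zfhx4, large zinc-finger homeobox factors, were 1.05 ± 0.13 and 1.52 ± 0.15 higher on the log2 scale, with Zfhx3 at 2139 and 1538 CPM in members against 892 and 900.1 CPM.

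The remaining genes that the naming rule took as highest were small, antisense to a larger gene, or held by few cells. 1700016K05Rik (33.0 and 48.0 CPM against 0 and 1.45) and Gm9984 (37.4 and 32.0 CPM against 1.97 and 0) both lie antisense within Ptprm, and 9330158H04Rik (24.2 and 16.01 CPM against 0 and 1.45) lies antisense to Chrm2. How strand was handled in counting is not given in the sources used here, so their reads cannot be told apart from those of the larger gene. Tacr1, the substance P receptor, stood at 33.0 and 16.01 CPM against 0 and 1.45 CPM, with 26 UMIs from 13 members against 1 UMI, a ratio of 27.3 with a 95% counting interval from 4.48 to 1119. Brinp3 (72.5 and 10.2 CPM against 0 and 1.45) had 84.8% of its UMIs of replicate 1 in a single cell. Gm11613 was found in 1 and 3 members. All but 1 of the 30 UMIs of Mrln came from 1 member of replicate 1. Ttr stood at 2.20 and 4080 CPM in the members, and 98.6% of its UMIs of replicate 2 lay in 1 cell. Its call was lost when ranked doublets were removed or cells with non-neural UMIs were left out.

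**Figure D2:**
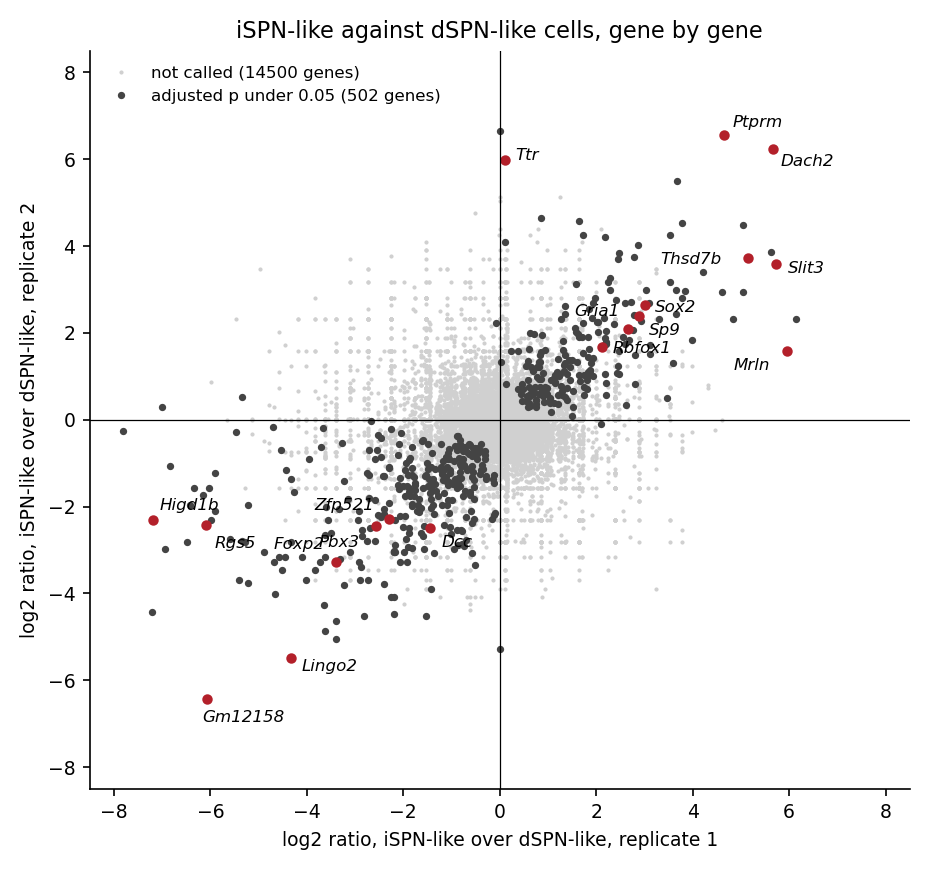
Log2 ratio of summed counts, iSPN-like over dSPN-like, in replicate 1 (x axis) and replicate 2 (y axis) for 15002 genes, with 0.5 counts added to each sum. Dark points are the 502 genes with an adjusted p under 0.05, light points the rest, and red points the genes named beside them. Ptprm, Dach2 and Slit3 lie high in both libraries, Lingo2, Foxp2 and Gm12158 low in both, and Ttr is high in replicate 2 only.

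Lingo2, a leucine-rich repeat transmembrane protein named after its values were seen, differed in the other direction. It stood at 37.4 and 14.6 CPM in the members and at 766 and 684 CPM in dSPN-like cells (-4.87 ± 0.25, adjusted p = 9.68e-27). Its UMIs came from 5 and 4 members, so nearly all members had none. Gm12158, which lies antisense within Ebf1, had no UMI in members and 68.9 and 62.2 CPM in dSPN-like cells, at least 24.8-fold lower when 3 counts over the members are taken as the limit. Since Ebf1 defined both gates, this gene is no independent result. Npy1r, the Y1 receptor of neuropeptide Y, stood at 0 and 1.46 CPM against 37.4 and 28.9 CPM (1 UMI against 39). Dlc1 stood at 0 and 1.46 CPM against 154 and 46.3 CPM, with 78.1% of the dSPN-like UMIs of replicate 2 in 1 cell. Plekhg5 had 86.5% of its dSPN-like UMIs of replicate 1 in 1 cell.

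The other genes that the rule took as lowest were Higd1b, Ndufa4l2, Sept4, Ednra, Cnn2 and Rgs5, of which Rgs5 and Higd1b are known from pericytes. In dSPN-like cells of replicate 1 they stood at between 39.4 and 219 CPM, and in replicate 2 at between 2.89 and 18.8 CPM. In the members they had no UMI, apart from 3 UMIs of Rgs5. These genes accompanied the mural and fibroblast markers that were high in dSPN-like cells of replicate 1. Pdgfrb, Dcn and Col1a2 of those lists were called lower in the members too, at -3.51 ± 1.01, -3.97 ± 0.70 and -2.57 ± 0.61.

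Most striatal projection neuron genes that do not belong to either pathway were not called. Of 17 tested, 4 were higher in the members, 2 were lower and 11 were not called, with a median log2 fold change of 0.29 against -0.0017 over all genes. Of all genes tested, 1.35% were higher and 1.99% lower. Bcl11b stood at 1800.4 and 1455 CPM in members and at 1366 and 1344 CPM in dSPN-like cells (0.29 ± 0.12, adjusted p = 0.309). Meis2 stood at 4733 and 4098 CPM against 3658 and 3541 CPM (0.33 ± 0.12, adjusted p = 0.169). The retinoic acid receptor Rarb (-0.40 ± 0.14) and the phosphodiesterase Pde10a (0.28 ± 0.15) were not called either. Bcl11b and Meis2 passed the threshold when members in by Six3 alone were left out. Among those higher were the G protein gamma subunit Gng7 (2.26 ± 0.57), the phosphoprotein Arpp21 (1.08 ± 0.19) and Gnal, the olfactory-type G protein alpha subunit of striatal neurons (0.95 ± 0.28). The calls of Gng7 and Gnal were lost with DESeq2 and in thinned cells.

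The 2 genes of that list that were lower were Foxp2 and Ikzf1. Foxp2, a forkhead factor related to Foxp1, stood at 160 and 144 CPM in members and at 1697 and 1399 CPM in dSPN-like cells (-3.30 ± 0.16, adjusted p = 2.4e-28). It was found in 19 and 30 members and in 81 and 112 dSPN-like cells. CGE-type cells held 1194 and 1215 CPM, so the members had less Foxp2 than both. Ikzf1, which encodes the zinc-finger factor Ikaros, stood at 0 and 4.37 CPM against 49.2 and 33.3 CPM, with 3 UMIs against 48 (ratio 15.2, 95% counting interval 4.91 to 76.5).

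Of 4 tested indirect-pathway genes outside the gate, 2 were higher in the members and 2 were not called, beside 1.35% higher of all genes. Sp9 stood at 354 and 246 CPM against 47.2 and 46.3 CPM (2.68 ± 0.20, adjusted p = 7.62e-18). The kainate receptor subunit Grik3 stood at 448 and 410 CPM against 65.0 and 97.0 CPM (2.40 ± 0.18, adjusted p = 4.87e-18), and it was found in 74.5% and 76.5% of members. Grik3 was also found in 54.0% and 49.7% of CGE-type, 42.6% and 38.6% of MGE-type and 38.5% and 39.8% of Meis2 LGE-type cells. Adk (-0.39 ± 0.31) and Plxdc1 (2.20 and 2.91 CPM against 5.91 and 0) were the other two. Upb1 and Ttc12 fell under the filter on low counts, with Upb1 at 6.60 and 16.01 CPM in members and no UMI in dSPN-like cells. Of 6 tested direct-pathway genes, Zfp521 and Eya1 were lower and 4 were not called, beside 1.99% lower of all genes. Zfp521, a zinc-finger cofactor known from the direct-pathway lineage, stood at 98.9 and 71.3 CPM against 488 and 349 CPM (-2.26 ± 0.17, adjusted p = 3.27e-18). Eya1 rested on 3 UMIs against 20, and its call was lost under 6 of 9 alternatives. Tac1, the precursor of substance P, had 2 UMIs in members and 12 in dSPN-like cells. Six3os1, the antisense neighbour of Six3, was 4.66 ± 0.36 higher, and because it overlaps a gene of the gate it is no independent result.

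Genes of the striosome and matrix, the compartments of the striatum, were called in 2 of 7 and 1 of 4 cases, all higher in the members. Over all genes tested, 1.35% were higher. These were Tshz1 (112 and 80.0 CPM against 19.7 and 33.3, 1.80 ± 0.28), Bach2 (1011 and 736 CPM against 514 and 441, 0.90 ± 0.14) and Id4 (523 and 486 CPM against 295 and 255, 0.92 ± 0.14). Oprm1, the mu opioid receptor that marks striosomes, stood at 35.2 and 48.0 CPM in members and 45.3 and 73.8 CPM in dSPN-like cells and was not called.

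Transcription factors of the LGE and its derivatives moved in both directions. Of 23 tested, 4 were higher and 8 lower, beside 1.35% higher and 1.99% lower of all genes. Beside Sp9 and Tshz1, the corepressor Tle4 (772 and 601 CPM against 203 and 297, 1.45 ± 0.15, adjusted p = 5.29e-12) and Meis1 (253 and 295 CPM against 158 and 133, 0.99 ± 0.17) were higher. Pbx3, a TALE homeobox factor that partners with Meis proteins, was the widest in the other direction, with 156 and 176 CPM against 923 and 964 CPM (-2.46 ± 0.16, adjusted p = 1.07e-21). Etv1 (-1.78 ± 0.47), Foxp4 (-1.17 ± 0.30) and Pou3f2 (-1.11 ± 0.27) were lower as well. Of these, Etv1 and Foxp4 lost their call when cells with non-neural UMIs were left out.

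Signalling downstream of dopamine receptors runs through cyclic AMP. Of 21 tested genes of dopamine and cyclic AMP signalling, 6 were higher in the members and none was lower, with a median log2 fold change of 0.28 and 15 not called. Over all genes tested, 1.35% were higher and 1.99% lower. The phosphodiesterases Pde4b (853 and 633 CPM against 236 and 107, 2.20 ± 0.18, adjusted p = 9.77e-17) and Pde7b (143 and 202 CPM against 43.3 and 53.5, 1.88 ± 0.24, adjusted p = 1.25e-08), which break down cyclic AMP, were among them, beside Gng7, Arpp21 and Gnal. Gng7, Arpp21 and Gnal are also on the list of projection neuron genes.

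Glutamate receptor genes were called in equal number on both sides, 3 higher and 3 lower of 23. Over all genes 1.35% were higher and 1.99% lower, which also stands beside the GABA and ion channel genes below. Higher were Grik3, the AMPA receptor subunit Gria1 (831 and 965 CPM against 130 and 224, 2.36 ± 0.16, adjusted p = 9.44e-20) and the metabotropic receptor Grm5 (437 and 579 CPM against 171 and 107, 1.96 ± 0.19, adjusted p = 1.28e-12). Lower were the AMPA subunit Gria4 (119 and 48.0 CPM against 205 and 352, -1.83 ± 0.24), the kainate subunit Grik2 (-0.94 ± 0.17) and Grm7 (-0.72 ± 0.17). The members thus held more Gria1 and less Gria4 than dSPN-like cells. Of 17 GABA genes, 1 was higher and 1 lower, the latter the receptor subunit Gabrb1 (-1.16 ± 0.35), which lost its call under 5 of 10 alternatives. Of 38 ion channel genes, the potassium channel Kcnd3 (167 and 132 CPM against 35.4 and 37.6, 2.04 ± 0.23) and the calcium channel Cacna1c (0.67 ± 0.16) were higher and 4 were lower, among them Cacna2d1, Kcnq5 and Cacnb2 with log2 fold changes from -1.53 to -0.88.

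**Figure D3:**
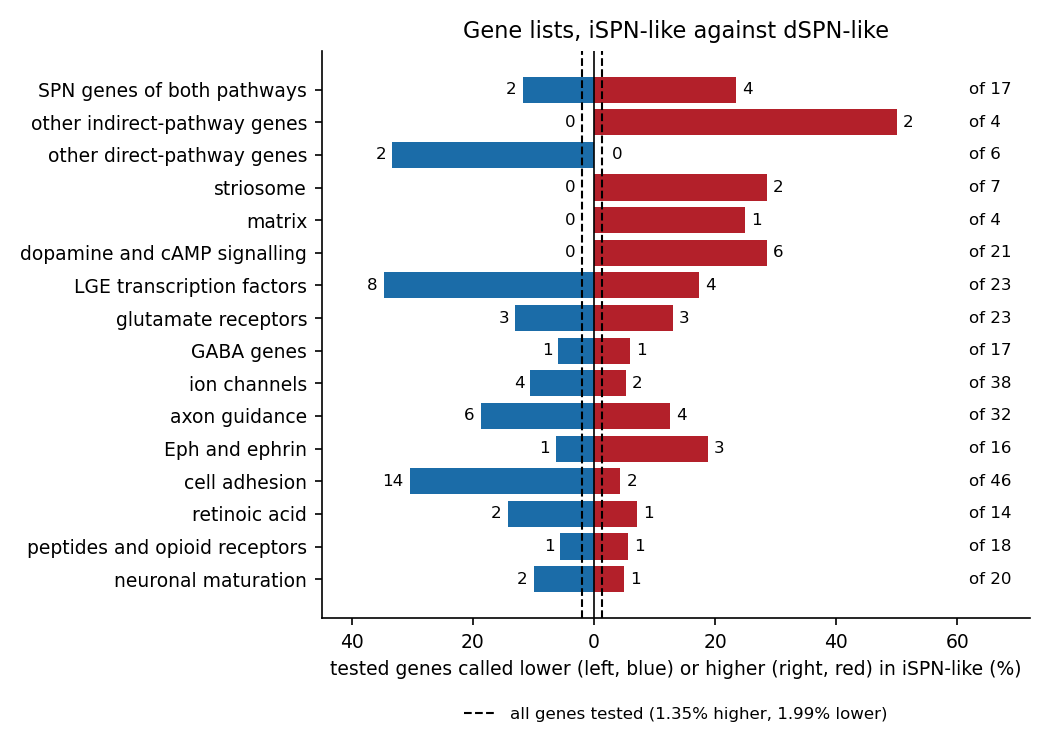
Share of the tested genes of each list (percent) that were higher (red, right) or lower (blue, left) in iSPN-like than in dSPN-like cells at an adjusted p under 0.05, with the number of genes beside each bar and the number tested at the right. Dashed lines mark the share over all genes tested (1.35% higher, 1.99% lower). Of the cell adhesion genes 14 of 46 were lower and 2 higher, and dopamine and cyclic AMP genes were called in 1 direction only (6 of 21).

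Of 46 cell adhesion genes tested, 14 were lower and 2 higher, beside 1.99% lower and 1.35% higher of all genes. Their median log2 fold change was -0.38, against -0.0017 over all genes. Cdh12 stood at 2.20 and 5.82 CPM against 80.7 and 104 CPM (-4.37 ± 0.43, adjusted p = 1.05e-12), the contactin Cntn5 at 112 and 212 CPM against 850 and 915 CPM (-2.37 ± 0.15, adjusted p = 6.02e-21), Dscam at -2.20 ± 0.25 and Cdh4 at -2.04 ± 0.23 on the log2 scale. The 2 that were higher were Ncam2 (1.55 ± 0.25) and Nrxn3, a presynaptic neurexin found in 101 of 102 and 147 of 149 members (9763 and 7562 CPM against 5764 and 5544, 0.64 ± 0.13). Of 32 axon guidance genes, 4 were higher and 6 lower, beside 1.35% and 1.99% of all genes. Unc5d, a netrin receptor, stood at 455 and 629 CPM against 76.8 and 166 CPM (2.16 ± 0.19, adjusted p = 5.74e-15), beside Slit3, Plxna4 (0.76 ± 0.18) and Slit2, whose call was lost under 8 of 10 alternatives. Dcc, the netrin receptor that mediates attraction, stood at 1334 and 712 CPM against 3664 and 3994 CPM (-1.93 ± 0.15, adjusted p = 5.64e-17). The neuropilin Nrp2 (-1.52 ± 0.33) and the semaphorins Sema3c (-2.38 ± 0.47) and Sema6a (-1.42 ± 0.30) were lower too. Nrp2 stood at 50.6 CPM in the members of replicate 1 and 13.1 CPM in those of replicate 2, from 6 and 8 cells. Of 16 Eph and ephrin genes, Epha7 (288 and 262 CPM against 94.5 and 104, 1.49 ± 0.18) and Epha5 (0.71 ± 0.17) were higher and Epha3 (-0.95 ± 0.23) lower in both libraries. Epha6 was the third called higher, but not in the same direction in both libraries.

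Rbfox1, a splicing regulator of maturing neurons, was the one maturation gene of 20 that was higher in the members, at 3616 and 2653 CPM against 829 and 823 CPM (1.95 ± 0.14, adjusted p = 2.53e-19). Stmn2 (-0.62 ± 0.13) and the neurofilament Nefl (2 UMIs against 19) were lower, and 17 were not called. All genes tested gave 1.35% higher and 1.99% lower, here and for the lists that follow. Among 14 genes of retinoic acid signalling, the receptor Rara was higher (1.69 ± 0.47) and 2 were lower, among them the enzyme Aldh1a3 (-2.63 ± 0.61). Of 18 peptide and opioid genes, Pam, which amidates neuropeptides, was lower, at 19.8 and 24.7 CPM against 207 and 236 CPM (-3.25 ± 0.25, adjusted p = 1.36e-17), and Npy was higher in the fit but in replicate 2 only (77.1 CPM, against 24.2 CPM in replicate 1). The plot of levels by class shows 12 of these genes in each library.

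**Figure D4:**
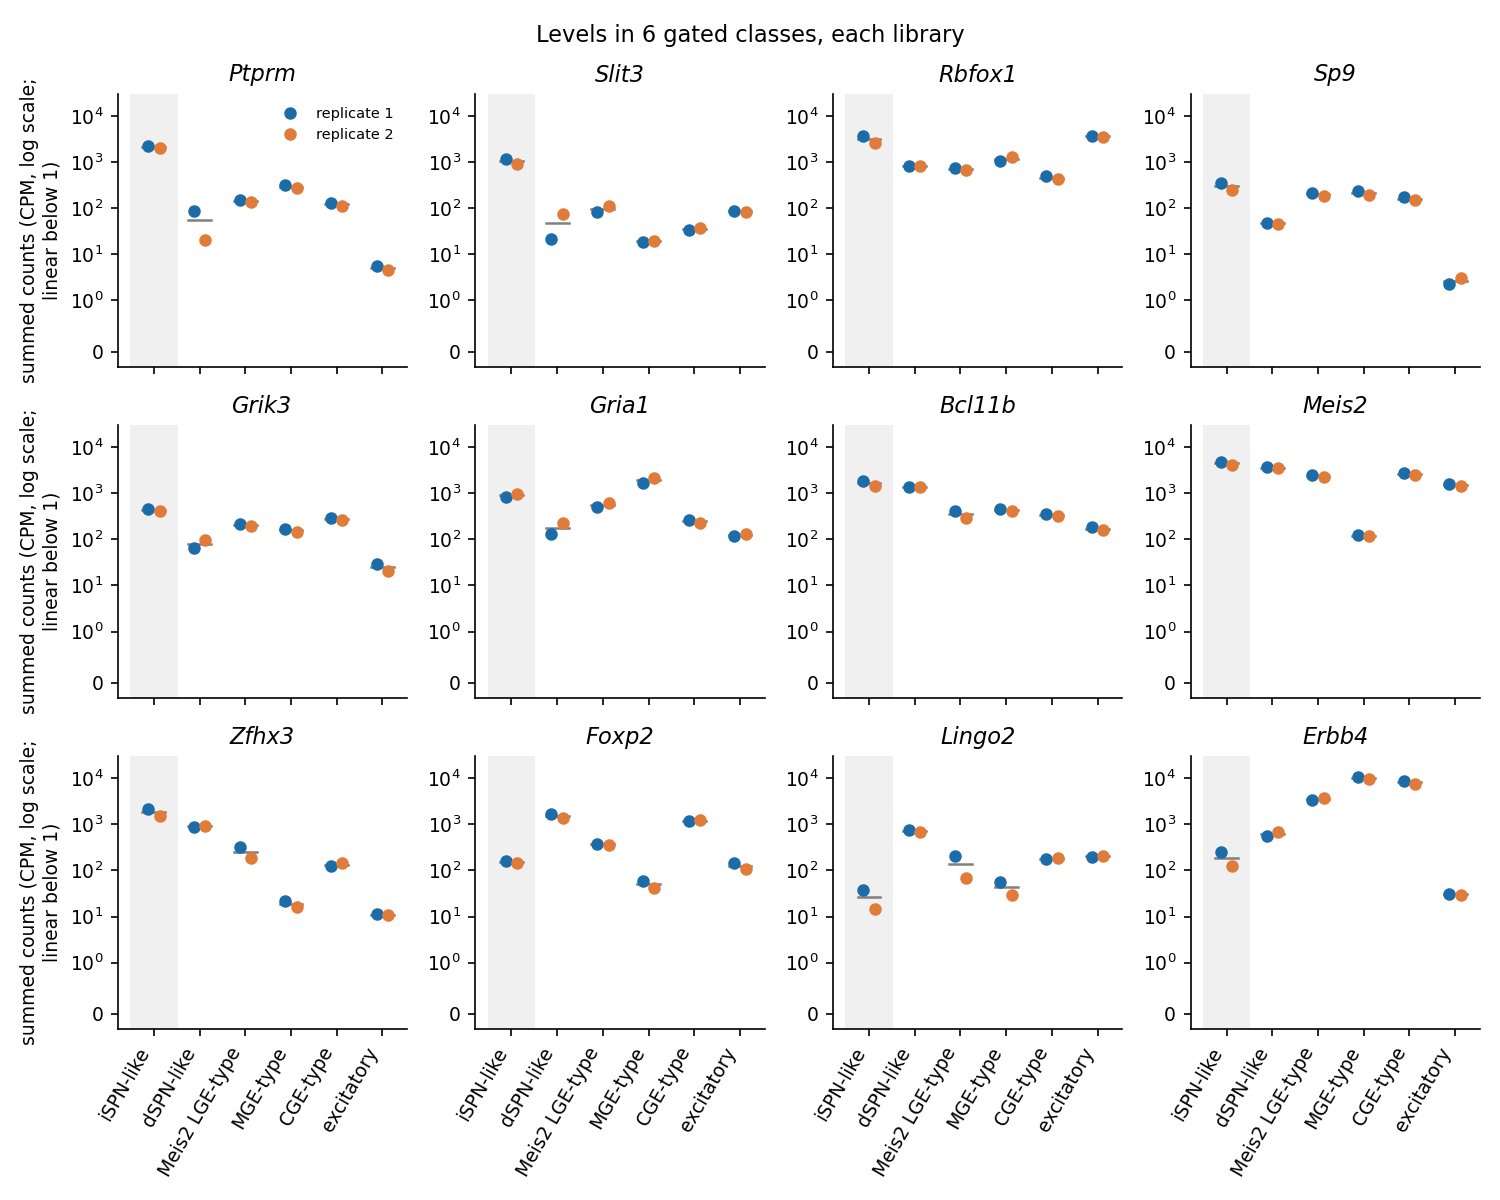
Level of 12 genes (CPM of the summed UMIs, log scale, linear below 1) in 6 gated classes of E16.5 cortex. Blue and orange points are replicates 1 and 2, grey lines their mean, and the shaded column the iSPN-like cells. Ptprm, Slit3 and Grik3 were highest in iSPN-like cells in both libraries, Bcl11b, Meis2 and Zfhx3 were high in both projection neuron classes, and Foxp2 and Lingo2 were lower in iSPN-like than in dSPN-like cells.

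The second comparison was with MGE-type cells, GABAergic neurons with a UMI of Lhx6, the factor of interneurons from the medial ganglionic eminence (256 and 345 cells). Of 15002 genes, 587 (3.91%) were higher and 690 (4.6%) lower in the members. All 11 tested MGE markers were lower. MGE-type cells were gated on Lhx6 and the members on its absence. Lower levels of genes that go with Lhx6 therefore follow in part from the gates. Erbb4 stood at 251 and 127 CPM in members and at 10488 and 9562 CPM in MGE-type cells (-5.81 ± 0.18, adjusted p = 4.84e-40), Sox6 at 132 and 27.6 CPM against 1596 and 1512 CPM (-4.48 ± 0.21), Maf at 33.0 and 30.6 CPM against 632 and 648 CPM (-4.36 ± 0.20) and Sst at 28.6 and 18.9 CPM against 316 and 422 CPM (-4.05 ± 0.23). Erbb4 was found in 14 and 17 members. Nxph2 and Dgkg had no UMI in the members and stood at 85.3 and 153 CPM and at 99.5 and 133 CPM in MGE-type cells, at least 47.4-fold and 45.3-fold lower against a limit of 3 counts over the members. Cntnap3 had 1 UMI in the members, against 78.7 and 112 CPM. Gm15655, antisense to Maf, had none. The summed globin genes given above were also lower in the members, and all 4 tested were called.

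Of 17 tested projection neuron genes, 11 were higher in the members than in MGE-type cells and none was lower. Over all genes the shares were 3.91% and 4.6%. Zfp503, a zinc-finger factor of the LGE, stood at 145 and 106 CPM against 1.90 and 4.11 CPM (5.23 ± 0.36, adjusted p = 3.55e-20), Meis2 at 4733 and 4098 CPM against 121 and 117 CPM (5.18 ± 0.15) and Arpp21 at 229 and 247 CPM against 8.53 and 8.91 CPM (4.74 ± 0.26). Zfhx3 stood at 2139 and 1538 CPM against 21.8 and 15.8 CPM (6.59 ± 0.20, adjusted p = 1.5e-40), and Lncbate1, antisense within it, at 33.0 and 14.6 CPM against none. Ipcef1, which overlaps Oprm1 on the opposite strand, and Gm47153 also had no UMI in MGE-type cells, and the members were at least 26.4-fold and 22.0-fold higher. Oprm1 itself stood at 35.2 and 48.0 CPM against 2.84 and 4.11 CPM (3.54 ± 0.50, adjusted p = 3.99e-08). Slit3 (5.71 ± 0.20), the receptor Ephb1 (292 and 329 CPM against 9.48 and 2.74, 5.78 ± 0.27, adjusted p = 1.29e-29), Pde7b (4.51 ± 0.29) and Pde4b (3.44 ± 0.18) were higher. Sp9 differed little between these classes (0.45 ± 0.14, adjusted p = 0.0261), and its call was lost under 4 of 10 alternatives. Gria4 (-4.56 ± 0.20) and Epha5 (-2.30 ± 0.16) were lower in the members.

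The third comparison was with Meis2 LGE-type cells, GABAergic cells with Meis2 but without Foxp1 or any gene of the other gates (78 and 133 cells). Of 15001 genes, 418 (2.79%) were higher and 443 (2.95%) lower in the members. Of 16 tested projection neuron genes, 8 were higher and Foxp2 was lower. Foxp1, itself a projection neuron factor, was required in the members and barred from this class. The count therefore follows in part from the gates. Rarb stood at 350 and 329 CPM against 36.8 and 15.0 CPM (3.88 ± 0.26, adjusted p = 1.57e-20), Arpp21 at 229 and 247 CPM against 12.3 and 62.02 CPM (2.60 ± 0.26) and Foxp2 at 160 and 144 CPM against 375 and 361 CPM (-1.21 ± 0.18). Slit3 (3.45 ± 0.19, adjusted p = 8.07e-25), Ephb1 (3.02 ± 0.25) and Pde4b (4.07 ± 0.24) were higher. The serotonin receptor Htr1f stood at 10.99 and 32.0 CPM against none and was at least 6.25-fold higher. Mrln and Gm19583, which the naming rule also took, came from 1 member in each library.

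Markers of the compared class itself came out as follows, beside 2.79% higher and 2.95% lower of all genes. Of 5 tested Meis2 LGE markers, 4 were lower, among them Etv1 (13.2 and 7.28 CPM against 276 and 158, -4.36 ± 0.33, adjusted p = 1.5e-17), Sp8 (-1.87 ± 0.44) and Pax6 (-1.82 ± 0.37). Erbb4 (-4.23 ± 0.18), Gria4 (-2.96 ± 0.22) and Mob3b (4.40 and 4.37 CPM against 117 and 103, -4.55 ± 0.43) were lower too, as were Sel1l3 (3 UMIs against 76.8 and 89.8 CPM), Cntnap3, the proneural factor Neurog2 and 8030451A03Rik, which is antisense to Tnc. Of 8 radial glial markers, Vim, Slc1a3, Fabp7 and Pax6 were lower, 3 were not called and Sox2 was higher (308 and 282 CPM against 160 and 130, 1.10 ± 0.17, adjusted p = 1.58e-06). The summed radial glial list stood at 1452 and 4429 CPM in Meis2 LGE-type cells, and Fabp7 had 52.6% and 51.0% of the members' UMIs in 1 cell of each library.

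Within the members, levels were also read in the 58 and 84 cells with a Drd2 UMI and in the 44 and 65 without. Drd2 is a gene of the gate, and members without it had to enter by Six3, Adora2a or Penk (72 by Six3 alone), so no test is reported and the values are a description for the 12 genes of the plot of levels. Both sets had similar depth, with medians of 3716.5 and 4289.5 UMIs in cells with Drd2 and of 3708 and 4006 UMIs in those without. Bcl11b stood at 2157 and 1752 CPM with Drd2 and at 1356 and 1034 CPM without, and Zfhx3 at 2812 and 1863 CPM with and 1302 and 1077 CPM without. Ptprm was at 2998 and 2342 CPM against 1302 and 1471 CPM, and was found in 27 and 52 of the cells without Drd2. Meis2 was at 5330 and 4210 CPM against 3990.3 and 3937 CPM, so these 4 genes stood higher in the cells with Drd2 in both libraries. Erbb4, a gene of MGE interneurons, was at 131 and 94.3 CPM with Drd2 and at 399.5 and 172 CPM without, from 7 to 9 cells in each sum.

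The 29 members with a Penk UMI (10 and 19) were read in the same way beside the 92 and 130 without. Penk is a gene of the gate too, and 9 of the 10 and 11 of the 19 cells held exactly 1 UMI of it, so again no test is reported. Bcl11b stood at 2212 and 1844 CPM with Penk and at 1753 and 1400 CPM without, Meis2 at 4764 and 4095 CPM and at 4729 and 4098 CPM. Slit3 was at 234 and 525 CPM in members with Penk, from 6 and 12 cells, and at 1304 and 961 CPM in the others.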

How the data were processed

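Cortex of 2 WT libraries at embryonic day 16.5 was dissociated with papain and sequenced by the 10x single-cell 3' v3.1 method. The authors deposited raw UMI counts per gene and barcode, made with Cell Ranger (7.1.0 per the file headers, 7.0.0 per the submitters' processing notes) on mm10. Whether intronic reads were counted is not given in the sources used here. Barcodes with 1500 to 60000 UMIs and under 10% mitochondrial UMIs were kept. Doublets were scored with scanpy 1.11.5 and left in, and their removal (0.8% per 1000 barcodes) was an alternative. The members and gene lists were chosen with earlier results of these data known.

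UMIs were summed per library and class and tested with edgeR 4.0.16 (R 4.3.3): TMM scaling, a minimum of 10 counts in at least 2 sums, quasi-likelihood test, library as a block, Benjamini-Hochberg adjustment. The library number pairs classes because all classes of a number come from the same library. Genes of the gates were not tested. CPM divides by all UMIs of the sum. Named were the called genes with the largest fold (10 per direction against dSPN-like cells, 5 in the other comparisons) that reached 20 CPM in whichever class was higher and moved alike in replicates 1 and 2, except gate, mitochondrial, ribosomal, globin and sex-linked genes and Six3os1, and up to 4 list genes per direction. Dach2, Lingo2, Sox2, Scube1, Plekhh2, Chrm2, Zfhx3 and Zfhx4 were named after their values were seen. Intervals are exact (Clopper-Pearson) and, like the limit of 3 counts for a 0, cover counting error only. Positions are from RefSeq for mm10, and overlaps of genes from the GENCODE annotation. Alternatives were DESeq2 1.42.0, its size factors, no filter on low counts, no library block, only the compared classes, doublet removal, thinning to 1500 UMIs, stricter gates and each library alone. Some genes that the naming rule took are not reported here.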

Additional observations from a re-analysis of the deposited data

How the results depend on the processing

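The number of genes called depended on the tool and the depth. Against dSPN-like cells 502 genes were called, with 311 by DESeq2, 314 with only the classes compared and 252 in cells thinned to 1500 UMIs. Against MGE-type cells 1277 were called, with 830 by DESeq2 and 685 thinned. Against Meis2 LGE-type cells 861 were called, with 564 by DESeq2 and 402 thinned. Without the library block, which pairs the classes of a library, the counts were 368, 1060 and 638. Tests of members with against without a UMI of Penk, and of Drd2 (added after seeing the data), were made under the same alternatives, and their calls are not reported because both genes chose the members. The share of members (1.58% of kept cells) was 0.740% when at least 2 of the 4 genes were required, 1.12% without members in by Six3 alone, 1.24% with under 5% mitochondrial UMIs, and 1.45% to 1.71% with each library alone. Under the 5% limit replicate 1 fell from 1.71% to 1.03% (27 of 2629 cells), while replicate 2 stood at 1.45% (79 of 5445). The order of the libraries thus turned. Of the named and list genes, 52 of 92 kept their side of the threshold against dSPN-like cells under all alternatives that gave a value, 69 of 103 against MGE-type cells and 50 of 91 against Meis2 LGE-type cells. The direction turned for Ttr against dSPN-like cells (log2 fold change -0.17 with at least 2 genes required, -0.13 without members in by Six3 alone), and against MGE-type cells for Col1a1 (0.53 with doublets removed) and Dcn (0.32 with doublets removed and 0.39 with cells holding non-neural UMIs left out, an alternative added after seeing the data). The cause was not tested. With 2 libraries and a median of 3716.5 and 4236 UMIs per member, genes of a few UMIs per class were limited by depth.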

Other observations

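Guidance and adhesion genes were called in both directions against MGE-type and Meis2 LGE-type cells. Against MGE-type cells 10 of 32 guidance genes were higher and 5 lower, beside 3.91% and 4.6% of all genes. Against Meis2 LGE-type cells 5 were higher and 5 lower, beside 2.79% and 2.95% of all genes. The Slit receptor Robo1 stood at 2383 and 2111 CPM in members, at 524 and 459 CPM in MGE-type cells (log2 fold change 2.17 ± 0.13, adjusted p = 2.81e-23) and at 811 and 571 CPM in Meis2 LGE-type cells (1.78 ± 0.14, adjusted p = 1.96e-17). Epha7 was higher in the members in both comparisons (2.07 ± 0.17 and 2.11 ± 0.22), whereas Epha3 was lower in both (-2.04 ± 0.20 and -1.58 ± 0.23). Of 46 adhesion genes, 7 were higher and 16 lower against MGE-type cells, and 8 were higher and 8 lower against Meis2 LGE-type cells. The protocadherin Pcdh10 was higher in the members in both (1.07 ± 0.19 and 1.07 ± 0.24). The potassium channel Kcnd2 stood at 747 and 623 CPM in members against 130 and 138 CPM in MGE-type cells (2.31 ± 0.16) and 427 and 240 CPM in Meis2 LGE-type cells (1.14 ± 0.16). The retinoid X receptor Rxrg stood at 44.0 and 50.9 CPM against 4.74 and 1.37 CPM in MGE-type cells (4.05 ± 0.58). Robo1 (-0.32 ± 0.12), Kcnd2 (-0.14 ± 0.14), Pcdh10 (0.36 ± 0.20) and Rxrg (-0.05 ± 0.42) were not called against dSPN-like cells, where Epha7 was higher (1.49 ± 0.18) and Epha3 lower (-0.95 ± 0.23) in the members. The comparisons share the members' sums, so they are not independent of each other.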
